A study of Oryza sativa Japonica Group with 4 samples.

Results

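Cytokinins are adenine-derived hormones that promote cell division and keep shoot and inflorescence meristems active. Their level in a tissue is set by successive enzymes. Isopentenyltransferases (IPT) attach the isoprenoid side chain to an adenine nucleotide, the rate-limiting reaction of the pathway. Cytochrome P450 enzymes of the CYP735A group hydroxylate that side chain and so give the trans-zeatin forms. The phosphoribohydrolase LOG, named after the LONELY GUY mutant of rice, releases the active free base from its nucleotide, and cytokinin oxidase/dehydrogenases (CKX) cleave the side chain and end the activity. In rice panicles this balance is well known, since loss of LOG stops meristems early and reduced CKX2 (Gn1a) expression gives more grains per panicle.

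Transcripts of 10 genes of these enzymes were followed, out of 37862 genes in the table of read counts. The 10 genes were taken by identifier: IPT7 (Os05g0551700), IPT8 (Os01g0688300), CYP735A3 (Os08g0429800), CYP735A4 (Os09g0403300), LOG (Os01g0588900), CKX1 (Os01g0187600), CKX2 (Os01g0197700), CKX4 (Os01g0940000), CKX5 (Os01g0775400) and CKX9 (Os05g0374200). The annotation tables of the study pair 4 of these identifiers (those of IPT7, IPT8, CYP735A4 and CKX1) with their names, and the other 6 names come with the list itself. All 10 had reads in the data, and 8 passed the filter on low counts.

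The libraries were made from young inflorescences 0.1 to 0.5 cm long of Oryza sativa Japonica Group, cultivar TP309. The WT group (n = 2) was wild type. The OsbZIP47KD group (n = 2) carried an osbzip47 dsRNAi construct, a hairpin RNA against the transcription factor gene OsbZIP47 under the maize ubiquitin promoter. Line 14 alone gave both of them, so the knockdown and any other effect of this line cannot be told apart. The study describes the replicates as biological without naming the plants behind them, so that p-values measure the spread between these libraries. Fewer cells of a type and less RNA per cell cannot be told apart in such bulk tissue.

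Total counts were 5611969 and 5100799 in WT and 3839165 and 4063036 in the OsbZIP47KD-labelled libraries. OsbZIP47 (Os06g0265400) itself had 471 and 261 counts in WT and 1003 and 919 counts in the OsbZIP47KD-labelled libraries. The targeted gene was thus called higher in the libraries labelled as knockdown, with a log2 fold change of 1.77 (SE 0.25, adjusted p = 0.0141, edgeR quasi-likelihood). The hairpin holds part of this gene, so its reads may be counted with it and the total does not check the labels. Each direction given here rests on the labels. All 10 genes listed as markers of the young panicle had reads in every library, with summed levels of 776 and 690 CPM in WT and of 751 and 448 CPM in OsbZIP47KD replicates 1 and 2. CPM are counts per library size, scaled with TMM factors, and both marker lists come from general knowledge. In OsbZIP47KD replicate 2, 3 of these 10 were at their lowest level of the 4 libraries and 3 at their highest. The lowest were OsMADS14 (56.8 CPM), OsMADS15 (84.2 CPM) and OsMADS34 (13.6 CPM). The highest were OsMADS1 (68.9 CPM), APO1 (35.3 CPM) and FZP (2.39 CPM). A set of 7 green leaf genes summed to 289 and 323 CPM in WT and to 144 and 191 CPM in the OsbZIP47KD-labelled libraries, with no gene at 0. The set went both ways, with 3 positive and 4 negative log2 fold changes. The 3 positive genes were those listed as RBCS, and the 4 negative ones were those listed as light-harvesting genes. An unadjusted p under 0.05 was reached by 4 of the 7 in edgeR's quasi-likelihood test, all of them light-harvesting genes. The light-harvesting gene CAB1R (Os09g0346500) was the only one of the 7 called by that test, as lower. Its log2 fold change was -2.40 (SE 0.29, adjusted p = 0.00357, edgeR quasi-likelihood). DESeq2 and edgeR's exact test each called 2 of the 7, as lower. The part of leaf tissue in the values given here was not tested.

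None of the 8 tested cytokinin genes passed an adjusted p of 0.05 in edgeR's quasi-likelihood test over 25289 genes, where 164 genes or 0.649% passed (0.127% higher and 0.522% lower). An unadjusted p under 0.05 was reached by 3 of the 8, namely IPT7, IPT8 and CYP735A4, and by 14.1% of all tested genes. DESeq2 and limma called 0 of the 8 and edgeR's exact test called 1, IPT7. The exact test passed more genes throughout, 795 or 3.14% of all tested. The same 3 genes met the criterion of the study, an absolute log2 fold change of at least 1 with an unadjusted p of at most 0.05, and all were on the higher side. Over all tested genes 1169, or 4.62%, met that criterion as higher and 631, or 2.50%, as lower (7.12% in all). A gene entered the test with at least 2.18 CPM in at least 2 libraries, and IPT7, IPT8 and CYP735A4 entered through the OsbZIP47KD-labelled libraries alone. Their presence among the tested genes therefore depended on a high level in that group. The 10 genes were also chosen with earlier results of these data known. The count of 3 is thus given as a description and cannot be weighed against the shares over all genes. Of 14 other tested genes listed for the same enzyme families, 0 met the criterion on either side.

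**Figure D1:**
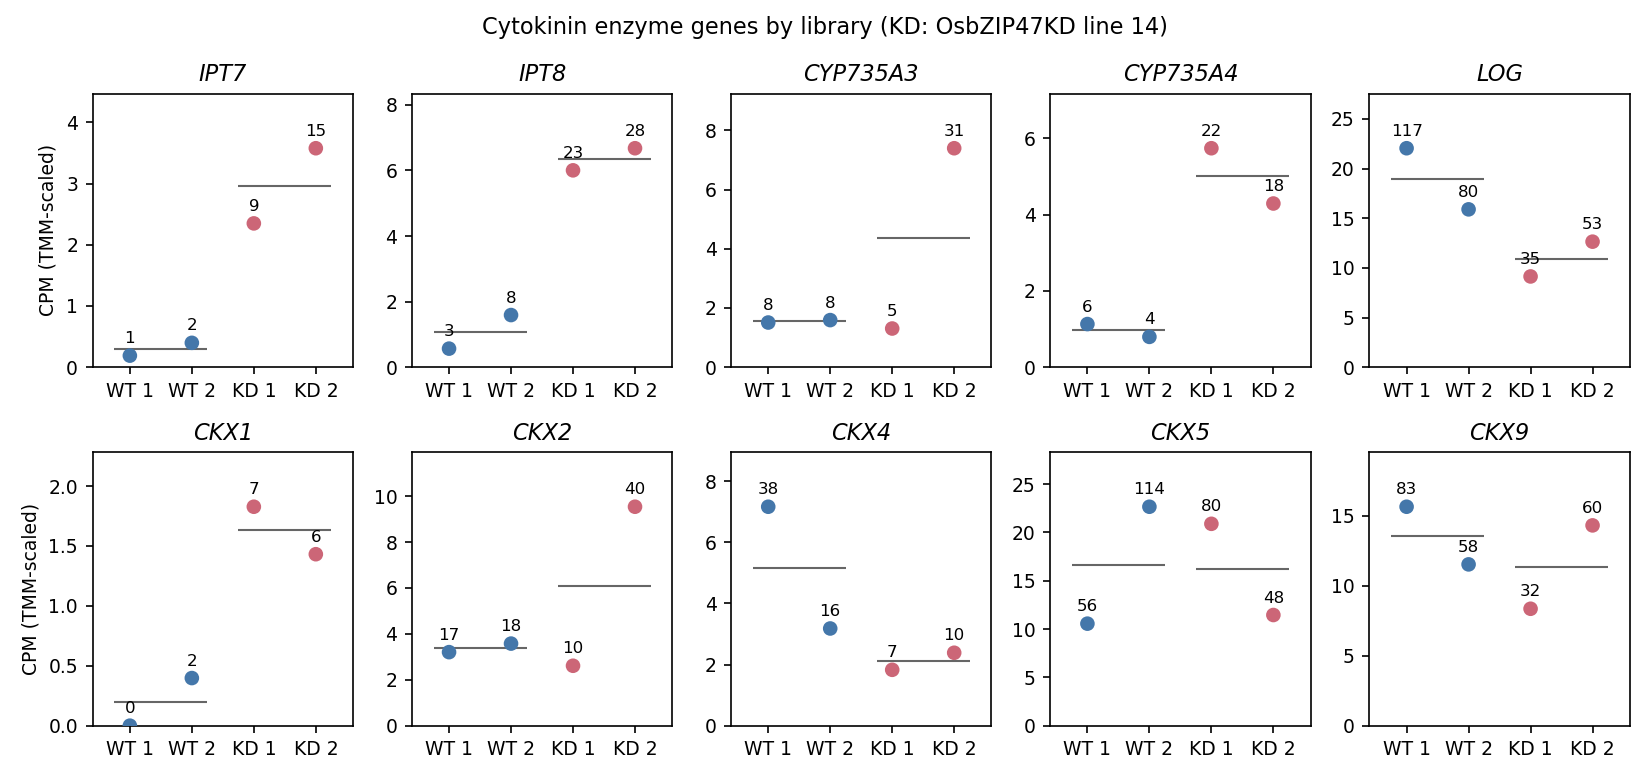
Level of each gene in each library as TMM-scaled CPM on a linear axis from 0, with the raw count printed above each point and a line at the group mean (blue, WT; red, OsbZIP47KD-labelled libraries; n = 2 each). The groups do not overlap for IPT7, IPT8, CYP735A4 and CKX1, which are higher in both red libraries, or for LOG and CKX4, which are lower.

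Both isopentenyltransferase genes followed here, IPT7 and IPT8, had few reads in WT panicles. IPT7 had 1 and 2 counts in WT and 9 and 15 counts in the OsbZIP47KD-labelled libraries. As levels these were 0.189 and 0.397 CPM against 2.35 and 3.58 CPM. Both OsbZIP47KD-labelled libraries lay above both WT libraries, on 27 counts in all. The log2 fold change of IPT7 was 3.24, a fold of 9.42 (SE 1.10 and 95% interval 0.85 to 5.62 on the log2 scale, adjusted p = 0.214, edgeR quasi-likelihood). The exact test in edgeR gave it an adjusted p of 0.0437, and across the alternatives this value reached 0.577.

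IPT8, an enzyme of the same family, had more reads. It was at 3 and 8 counts in WT and 23 and 28 counts in the OsbZIP47KD-labelled libraries, or 0.566 and 1.59 CPM against 6.0 and 6.68 CPM, with group means of 1.08 ± 0.724 and 6.34 ± 0.477 CPM (SD, n = 2 each). The groups did not overlap. The WT replicates differed by 2.81-fold (95% counting interval 0.675 to 16.5) and those of the knockdown line by 1.11-fold (0.618 to 2.02). Its log2 fold change was 2.54 (SE 0.79, 95% interval 0.81 to 4.26), with an unadjusted p of 0.00760 and an adjusted p of 0.179 (edgeR quasi-likelihood). With 1 library left out, its log2 fold change was lowest in the absence of WT replicate 1 (1.99) and highest in that of WT replicate 2 (3.42), and its adjusted p stayed above 0.05 in each of these fits. IPT7 missed the criterion of the study without OsbZIP47KD replicate 2, at a log2 fold change of 2.90 and an unadjusted p of 0.128 from the same quasi-likelihood test.

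The hydroxylases of the CYP735A pair make trans-zeatin forms in rice, and the data for them were unequal. CYP735A4 had 6 and 4 counts in WT and 22 and 18 counts in the OsbZIP47KD-labelled libraries. Both WT libraries, at 1.13 and 0.795 CPM, lay below both others, at 5.74 and 4.29 CPM. Between the groups CYP735A4 differed by a log2 fold change of 2.34 (SE 0.82, 95% interval 0.56 to 4.13, adjusted p = 0.226, edgeR quasi-likelihood). Without WT replicate 2 or OsbZIP47KD replicate 1 it missed the criterion of the study, with log2 fold changes of 2.12 and 2.13 and unadjusted p of 0.0522 and 0.0903 by the quasi-likelihood test.

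CYP735A3 was under the filter and was not tested. It had 8 and 8 counts in WT and 5 and 31 counts in OsbZIP47KD replicates 1 and 2, so that the groups overlapped and a single library held most of its reads. In OsbZIP47KD replicate 2 its level was 5.66-fold that of replicate 1 (95% counting interval 2.18 to 18.7). The ratio of pooled counts per scaled library, OsbZIP47KD-labelled libraries over WT, was 2.90 (exact binomial 95% interval 1.57 to 5.60, covering counting error only). Without OsbZIP47KD replicate 2 the log2 of this ratio turned from 1.54 to -0.25. The same library had the lowest summed level of the panicle markers, of which 3 were lowest and 3 highest there, and the part of this in the value of CYP735A3 was not tested.

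LOG, which activates cytokinin at the tip of shoot meristems in rice, had values in the other direction. It had 117 and 80 counts in WT and 35 and 53 counts in the OsbZIP47KD-labelled libraries, or 22.1 and 15.9 CPM against 9.14 and 12.6 CPM, with group means of 19.0 ± 4.35 and 10.9 ± 2.48 CPM (SD, n = 2 each). The highest OsbZIP47KD-labelled library was below the lowest WT library, although by a gap narrower than the distance between the WT replicates. For LOG the log2 fold change was -0.80 (SE 0.37, 95% interval -1.60 to 0.003), with an unadjusted p of 0.0507 and an adjusted p of 0.355 (edgeR quasi-likelihood). Without WT replicate 2 it met the criterion of the study on the lower side, at a log2 fold change of -1.01, and without OsbZIP47KD replicate 2 at -1.05. Without WT replicate 1 it was at -0.53 and without OsbZIP47KD replicate 1 at -0.58.

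**Figure D2:**
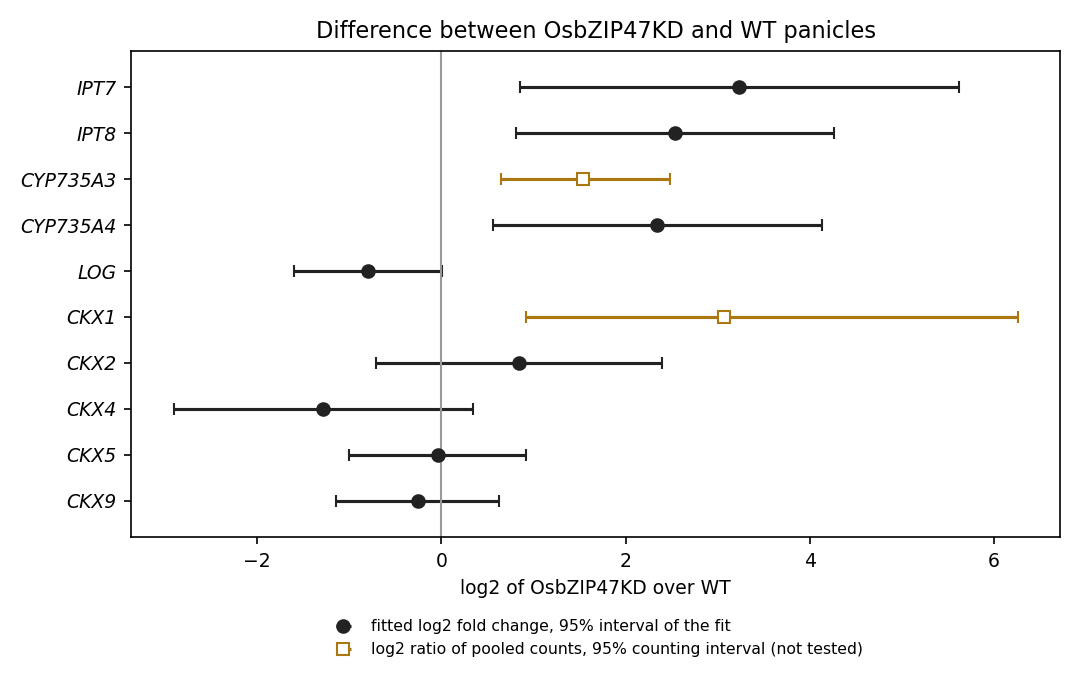
Log2 of the OsbZIP47KD-labelled libraries over WT for each gene (n = 2 per group), as the fitted log2 fold change with its 95% interval for tested genes (filled circles) and as the ratio of pooled counts with its exact 95% counting interval for genes under the filter (open squares). The intervals of IPT7, IPT8 and CYP735A4 lie above 0 before adjustment, and those of the 4 tested CKX genes include 0.

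The degradation genes differed in direction among themselves. None of the 4 tested CKX genes reached an unadjusted p under 0.05 in edgeR's quasi-likelihood test, and DESeq2, edgeR's exact test and limma called 0 of them. CKX1, which was not tested, had 0 and 2 counts in WT and 7 and 6 counts in the OsbZIP47KD-labelled libraries. All 4 values are small, and the groups did not overlap. The ratio of its pooled counts was 8.38 (exact binomial 95% interval 1.90 to 76.4, covering counting error only). Without WT replicate 1 the log2 of this ratio went from 3.07 to 2.03. Without WT replicate 2 no WT count remained, and against a floor of 3 counts in WT replicate 1 the log2 ratio was at least 1.52.

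CKX2, the gene of the grain number locus Gn1a, was near the same level in 3 of the 4 libraries. Its counts were 17 and 18 in WT and 10 and 40 in OsbZIP47KD replicates 1 and 2, or 3.20, 3.58, 2.61 and 9.54 CPM. Replicate 2 was 3.65-fold above replicate 1 (95% counting interval 1.80 to 8.20), a difference beyond counting error within the same line. The WT replicates differed by 1.12-fold (95% counting interval 0.543 to 2.31). The log2 fold change of CKX2 was 0.84 (SE 0.71, 95% interval -0.71 to 2.39, adjusted p = 0.645, edgeR quasi-likelihood). Leaving out OsbZIP47KD replicate 2 turned it to -0.37. Leaving out replicate 1 instead gave 1.49, which met the criterion of the study (unadjusted p = 0.0422, edgeR quasi-likelihood across all genes).

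The zinc finger protein DST is known in rice to activate CKX2 directly in the inflorescence meristem. It was listed as a regulator and is mentioned after its values were seen. DST (Os03g0786400) had 31 and 174 counts in WT and 164 and 415 counts in OsbZIP47KD replicates 1 and 2, which is 5.84, 34.6, 42.8 and 99.0 CPM. Its WT replicates lay far apart, while those of CKX2 were close. In OsbZIP47KD replicate 1 DST was above both WT libraries, while CKX2 had its lowest level there. Both genes were highest in OsbZIP47KD replicate 2. The log2 fold change of DST was 1.82 (SE 1.04, adjusted p = 0.556, edgeR quasi-likelihood). A part of DST in the values of CKX2 was not tested.

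CKX4, which in rice is known to affect crown root formation, had 38 and 16 counts in WT and 7 and 10 counts in the OsbZIP47KD-labelled libraries. Its levels were 7.16 and 3.18 CPM against 1.83 and 2.39 CPM, without overlap. The WT replicates differed by 2.25-fold (95% counting interval 1.23 to 4.33). For CKX4 the log2 fold change was -1.28 (SE 0.75, 95% interval -2.91 to 0.34, adjusted p = 0.471, edgeR quasi-likelihood), and it was -0.57 without WT replicate 1 and -1.75 without WT replicate 2.

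CKX5 and CKX9 had the highest counts of the 5 CKX genes followed here, and their groups overlapped. CKX5 had 56 and 114 counts in WT and 80 and 48 counts in the OsbZIP47KD-labelled libraries. Its WT replicates differed by 2.15-fold (95% counting interval 1.55 to 3.01) and those of the knockdown line by 1.82-fold (1.26 to 2.67). The log2 fold change of CKX5 was -0.04 (SE 0.44), and its 95% interval ran from -1.0 to 0.92. CKX9, which in rice is known to respond to strigolactone, had 83 and 58 counts in WT and 32 and 60 counts in the OsbZIP47KD-labelled libraries. Its log2 fold change was -0.26 (SE 0.41, 95% interval -1.15 to 0.63). The adjusted p was 0.980 for CKX5 and 0.832 for CKX9, from edgeR's quasi-likelihood test.

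Libraries of a group did not overlap those of the other for 6 of the 10 genes. The OsbZIP47KD side was higher in 4 of them and lower in 2. Among the 8 tested genes these were 3 higher and 2 lower, and among all tested genes 23.0% were higher and 22.8% lower by the same rule (45.9% in all). Lack of overlap was thus common in the data, and it is not a result about these genes.

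**Figure D3:**
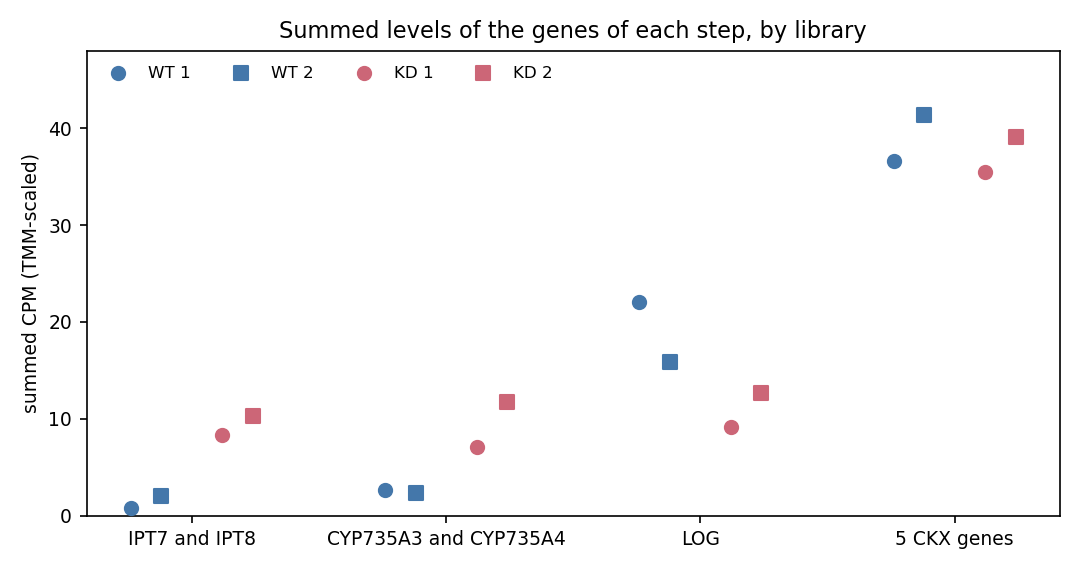
Summed level of the genes followed here for each step, without the other genes of the same families, in each library as TMM-scaled CPM on a linear axis from 0 (blue, WT; red, OsbZIP47KD-labelled libraries; circles, replicate 1; squares, replicate 2). The sums of the IPT and CYP735A pairs are higher in both red libraries, LOG is lower, and the 5 CKX genes together lie between 35.5 and 41.3 CPM in all libraries.

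When counts were added over the genes followed here for each step, the sums differed in pattern. They leave out the other genes of the same families, whose sums are given below, and so do not describe whole steps. IPT7 and IPT8 together were at 0.754 and 1.99 CPM in WT and at 8.35 and 10.3 CPM in the OsbZIP47KD-labelled libraries. The CYP735A pair was at 2.64 and 2.38 CPM in WT and at 7.05 and 11.7 CPM in the others, and most of the last value came from CYP735A3. The 5 CKX genes together were at 36.6 and 41.3 CPM in WT and at 35.5 and 39.1 CPM in the OsbZIP47KD-labelled libraries, a ratio of 0.962 (exact binomial 95% interval 0.825 to 1.12, covering counting error only). These sums are descriptions without a test, and genes with many counts weigh most in them.

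A further list held 24 identifiers of the same enzyme families, taken from general knowledge and not checked against an annotation. Of these, 14 entered the fit. In the quasi-likelihood test of edgeR 0 had an adjusted p under 0.05, none reached an unadjusted p under 0.05, and DESeq2, edgeR's exact test and limma called 0. Their median log2 fold change was 0.24, beside 0.02 over all tested genes. The 10 listed LOG-like genes summed to 98.0 and 104 CPM in WT. Their sum, unlike the level of LOG, was higher in both OsbZIP47KD-labelled libraries (119 and 130 CPM). The genes themselves went both ways, with 6 positive and 3 negative log2 fold changes among the 9 tested. The 8 other IPT genes summed to 54.1 and 47.1 CPM in WT and to 72.6 and 43.7 CPM in OsbZIP47KD replicates 1 and 2. Most of each sum came from Os01g0968700, at 47.3 and 41.1 CPM in WT and 61.6 and 30.3 CPM in those replicates. For the 6 other CKX genes the sums were 42.2 and 34.2 CPM against 53.0 and 31.7 CPM. These sums were not tested. Among the 10 of the 24 that were not tested, Os03g0358900 is annotated by the study as an isopentenyltransferase. It stood at 2 and 0 counts in the WT replicates against 4 and 14 counts in OsbZIP47KD replicates 1 and 2. It is singled out because of these values, and other genes listed in this family differed in pattern. Os06g0729800 had 7 and 0 counts in WT against 0 and 0, Os07g0211700 had 6 and 0 against 4 and 22, and Os03g0356900 had 4 and 1 against 8 and 5. The tested Os03g0810100 and Os01g0968700 had log2 fold changes of 0.11 and 0.05. In a second unchecked list of 10 type-A response regulator genes, which cytokinin induces rapidly, 7 were tested and none passed either threshold in edgeR's quasi-likelihood test, and the other tools called 0. Their median log2 fold change was 0.04.

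**Figure D4:**
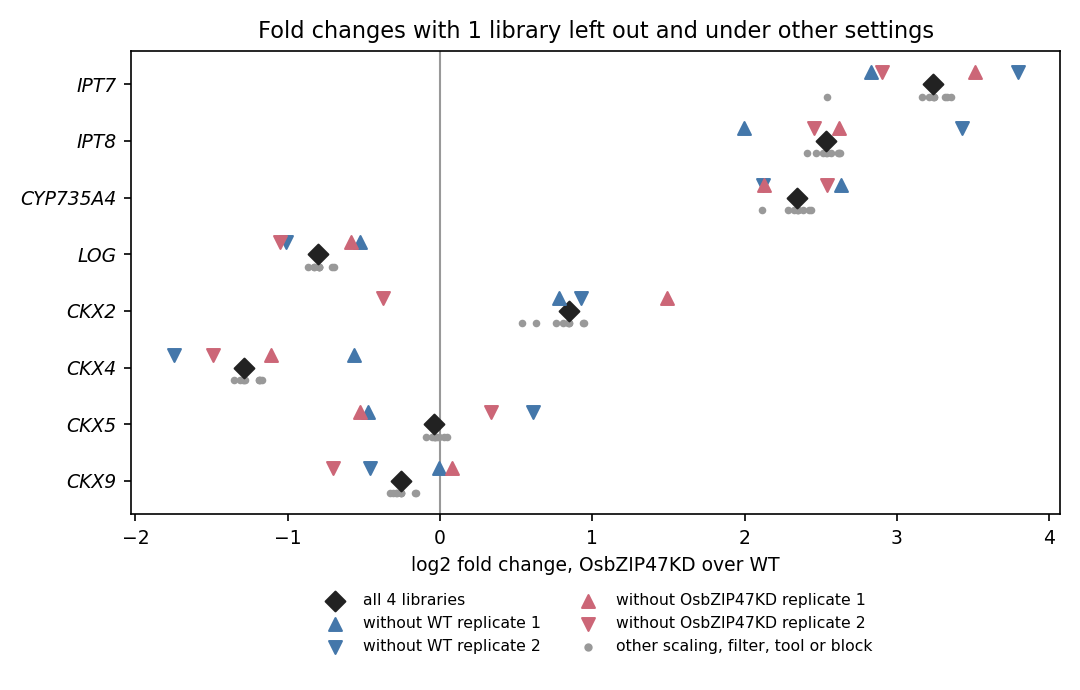
Log2 fold change of each tested gene, OsbZIP47KD-labelled libraries over WT, with all 4 libraries (diamonds), with 1 library left out (triangles) and under the other scalings, filters, tools and the replicate block (grey points). IPT7, IPT8 and CYP735A4 stay above 0 and LOG and CKX4 below 0 in all of these fits, while the direction of CKX2, CKX5 and CKX9 turns in at least 1.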

How the data were processed

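RNA-Seq libraries of WT (n = 2) and OsbZIP47KD (n = 2) panicles were compared. The authors depleted ribosomal RNA, sequenced paired reads, aligned them to the RAP-DB rice genome with STAR v2.5.3a and deposited raw read counts per gene. The counting program and its strand setting are not given in the sources used here, so a gene and its overlapping or antisense neighbour may share reads. The deposited normalized values, a score made by the authors as the count times 1 factor per library and rounded, are blank for low genes and served only for limma. No columns of the authors' own comparisons were used.

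The quasi-likelihood model of edgeR (v4.0.16, under R v4.3.3) was fitted to the counts (filterByExpr at min.count 10 and min.total.count 15, TMM, robust fit, Benjamini-Hochberg adjustment over all tested genes). Standard errors and 95% intervals were derived from the test statistic. Genes too low for the filter were described by the ratio of their summed counts per scaled library and its exact binomial interval, with a floor of 3 counts for a group with none. All 10 genes are named, with OsbZIP47, and other listed genes by exception. The members and lists were chosen with earlier results of these data known. Alternatives were RLE, upper quartile and no scaling factors, no filter, 1 CPM required in 2 libraries, the exact test of edgeR, DESeq2 (v1.42.0), limma (v3.58.1) on log2 of the normalized values with 1 added, a replicate block and each library left out. The fit was tested on simulated data. No gene sequences, gene lengths or coordinates were used, so levels are not compared between genes. No source names molecular identifiers, so counting intervals cover counting error only.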

Additional observations from a re-analysis of the deposited data

How the results depend on the processing

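Of 104 alternative values for the 8 tested genes, 98 kept the direction of the fold change and 1 passed an adjusted p of 0.05, IPT7 by edgeR's exact test (log2 fold change 3.24), which made 1 gene called higher instead of 0. All of these fits drew on the same 4 libraries, so the 104 values are not independent of each other. No setting called a gene lower. With 1 library left out, 0 genes were called at the adjusted threshold, 2 to 3 were higher and 0 to 1 lower at the criterion of the study, and 0 of the other cytokinin enzyme genes were called. The 3 higher genes without OsbZIP47KD replicate 1 were IPT7, IPT8 and CKX2, and the lower gene without WT replicate 2 or OsbZIP47KD replicate 2 was LOG. In those fits the group with 1 library was assumed to vary like the other. Log2 fold changes ran from -0.37 to 1.49 for CKX2, from -0.53 to 0.61 for CKX5 and from -0.70 to 0.079 for CKX9, and the log2 ratio of CYP735A3 from -0.25 to 2.26 and that of CKX1 from 1.52 to 3.24. CKX5 was also above 0 with upper quartile factors (0.043) and library totals only (0.025), and the cause of these turns was not tested. Over all genes, 32 higher and 132 lower became 52 and 121 with library totals only, and the settings ran from 21 to 355 higher and from 50 to 551 lower. With the replicate block 0 of the cytokinin genes were called and 186 genes were higher and 410 lower in all. The numbers are not known to pair libraries, and the deviations of same-numbered libraries correlated with r = 0.04 across genes. CKX1 and CYP735A3 could be tested with no filter, where their adjusted p were 0.602 and 0.587 by the quasi-likelihood test. No group had 0 counts over both libraries, so a floor of 1 count was not run. IPT7, CKX1, CYP735A4 and IPT8 rested on 3, 2, 10 and 11 counts over both WT libraries.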
